A study of Mus musculus with 12 samples.

Results

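Iron handling in myelin was followed through 9 genes that encode the proteins storing, importing, exporting and sensing iron: Fth1, Ftl1, Trf, Tfrc, Slc40a1, Slc11a2, Ireb2, Aco1 and Cp. They were taken by their symbols, as a set of genes with these roles, and are 9 of the 21937 genes in the table. Myelin, the insulating sheath that oligodendrocytes form around axons, was purified as a light membrane fraction on sucrose gradients from brains of male c57Bl6/N mice, and its RNA was sequenced. The mice were 18 days (P18), 75 days (P75), 6 months or 24 months old, with 3 libraries per age and 12 in all, and no group carried a transgene or a treatment. The libraries of 6 months came from individual brains. Whether this holds at the other ages is not given in the sources used here, so p-values measure the spread between libraries. The fraction is a membrane preparation and not a pure cell type: in such bulk samples fewer cells or membranes of a type and less RNA in each cannot be told apart.

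Oligodendrocytes hold much of the iron in the brain, and enzymes of lipid and cholesterol synthesis and of energy metabolism need it. Transferrin carries iron in the blood and the fluid of the brain, the transferrin receptor takes it up, and the transporter DMT1 moves it out of the endosome. Ferritin, a hollow shell of heavy and light chains, stores it, and ferroportin exports it with the help of a ferroxidase such as ceruloplasmin. The iron-regulatory proteins IRP1 and IRP2 bind a hairpin in certain messenger RNAs, the iron-responsive element. Such binding blocks translation where the element lies in the 5′ untranslated region (UTR), and protects the messenger RNA from decay where it lies in the 3′ UTR.

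The elements in these genes are shown because they are the feature through which ferritin, ferroportin and transferrin receptor messenger RNAs are read by the iron-regulatory proteins. The annotated transcripts were searched on their own strand for a C, 5 stem bases, the loop CAGTGN and 5 bases that pair with the stem, G with T allowed. A match was found in Fth1, Ftl1 and Slc40a1 in the 5′ UTR and 4 times in Tfrc in the 3′ UTR of 1 of its 3 coding transcripts. The same pattern was present in the 5′ UTR of 31 of 18613 genes (0.167%) and in the 3′ UTR of 120 of 18633 genes (0.644%). Each is printed 5′ to 3′ from GENCODE transcripts on NCBIM37, the assembly also called mm9, with 6 bases of flank on either side and the loop in capitals, and each was the same in the genome sequence.
Fth1 5′ UTR, chr19:10057222-10057250, plus strand: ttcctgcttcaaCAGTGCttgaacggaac
Ftl1 5′ UTR, chr7:52715149-52715177, minus strand: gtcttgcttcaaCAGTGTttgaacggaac
Slc40a1 5′ UTR, chr1:45982310-45982338, minus strand: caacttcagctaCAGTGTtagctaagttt
Tfrc 3′ UTR, chr16:32631305-32631333, plus strand: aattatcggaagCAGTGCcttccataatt
Tfrc 3′ UTR, chr16:32631684-32631712, plus strand: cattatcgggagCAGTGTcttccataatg
Tfrc 3′ UTR, chr16:32631749-32631777, plus strand: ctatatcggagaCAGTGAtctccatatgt
Tfrc 3′ UTR, chr16:32631796-32631824, plus strand: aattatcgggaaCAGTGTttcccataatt
The 2 ferritin elements share their stem, whereas the 4 elements of Tfrc and that of Slc40a1 differ from it and from each other. A match describes the letters and was not tested for binding. The search allowed no unpaired base within the stem. The lack of a match, as in Slc11a2, therefore does not show that no element is present, and Tfrc may hold more than those printed.

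The measure throughout is the normalized read count, that is the reads on a gene divided by a size factor of the library, which was neither divided by transcript length nor logged. The libraries held 20299052 to 27214385 reads on genes, and 11 markers of myelin and mature oligodendrocytes, none at 0, summed to normalized read counts between 1287400 and 6210350. The third P18 library stood apart from the other P18 libraries in several members, and calls that rest on it are given without it. The sizes of changes from P18, and the ratios at P18, include it unless stated. Changes between ages are log2 differences from 1 limma fit over all 12 libraries on log2(normalized read count + 1), in which 14634 genes with a mean of at least 10 were tested. A gene was called at an adjusted p (Benjamini-Hochberg over all tested genes) under 0.1. All 9 members were tested.

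Fth1 encodes the ferritin heavy chain, which oxidizes iron as it enters the shell. The gene, with 4 exons, spans chromosome 19 from 10057193 to 10059582. Its normalized read count was 198900, 221953 and 91427 in replicates 1, 2 and 3 at P18, and 524948, 418279 and 498505 at P75. At 6 months the counts were 366269, 684863 and 559930, and at 24 months 1153021, 798462 and 656046. Every library of a later age lay above every library of P18, while the ranges of P75 and 6 months, and those of 6 and 24 months, overlapped. Fth1 rose 3.004-fold from P18 to P75 (log2 change 1.59 ± 0.39, SE; limma, adjusted p = 0.0042) and 5.31-fold from P18 to 24 months (log2 change 2.41 ± 0.39; limma, adjusted p = 5.6e-05). Without replicate 3 of P18, the lowest of its age, the first of these was 1.19 (adjusted p = 0.016). Neither the step from P75 to 6 months (log2 change 0.12, 95% interval -0.71 to 0.95) nor that from 6 to 24 months (0.70, interval -0.13 to 1.53; adjusted p = 0.22) passed the test. Fth1 took between 0.406% and 0.826% of all reads at P18 and between 2.89% and 4.83% at 24 months. By its mean normalized read count, not divided by length, it ranked 4 of all genes at P18 and 2 at each later age.

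Ftl1 encodes the ferritin light chain, which helps the iron core to form. It spans chromosome 7 from 52713314 to 52715254, also with 4 exons. Its normalized read count was 10065, 10653 and 7458 at P18, 6296, 5863 and 6581 at P75, 2998, 4043 and 4306 at 6 months, and 5168, 4776 and 5311 at 24 months. The counts were lowest at 6 months and none of the 4 ranges overlapped its neighbour in time. Ftl1 fell by 0.57 ± 0.14 (SE, log2) from P18 to P75 and by 0.74 ± 0.14 from P75 to 6 months (limma, adjusted p = 0.0035 and 0.00032). From 6 to 24 months it rose by 0.44 ± 0.14 (limma, adjusted p = 0.035), a call that rested on replicate 1 of 6 months: without that library the change was 0.28 (adjusted p = 0.18).

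The 2 chains of the same shell thus had changes of opposite sign between P18 and P75. Both have near-identical copies in the genome: 21.3% of the 746 windows of 31 bases in the exons of Fth1, and 56.3% of the 1220 in those of Ftl1, occur at least once more in NCBIM37. The handling of reads that match several places is not given in the sources used here, so their absolute levels are uncertain. The pseudogene Ftl2 had a mean normalized read count of 9.96 over the 12 libraries.

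**Figure D1:**
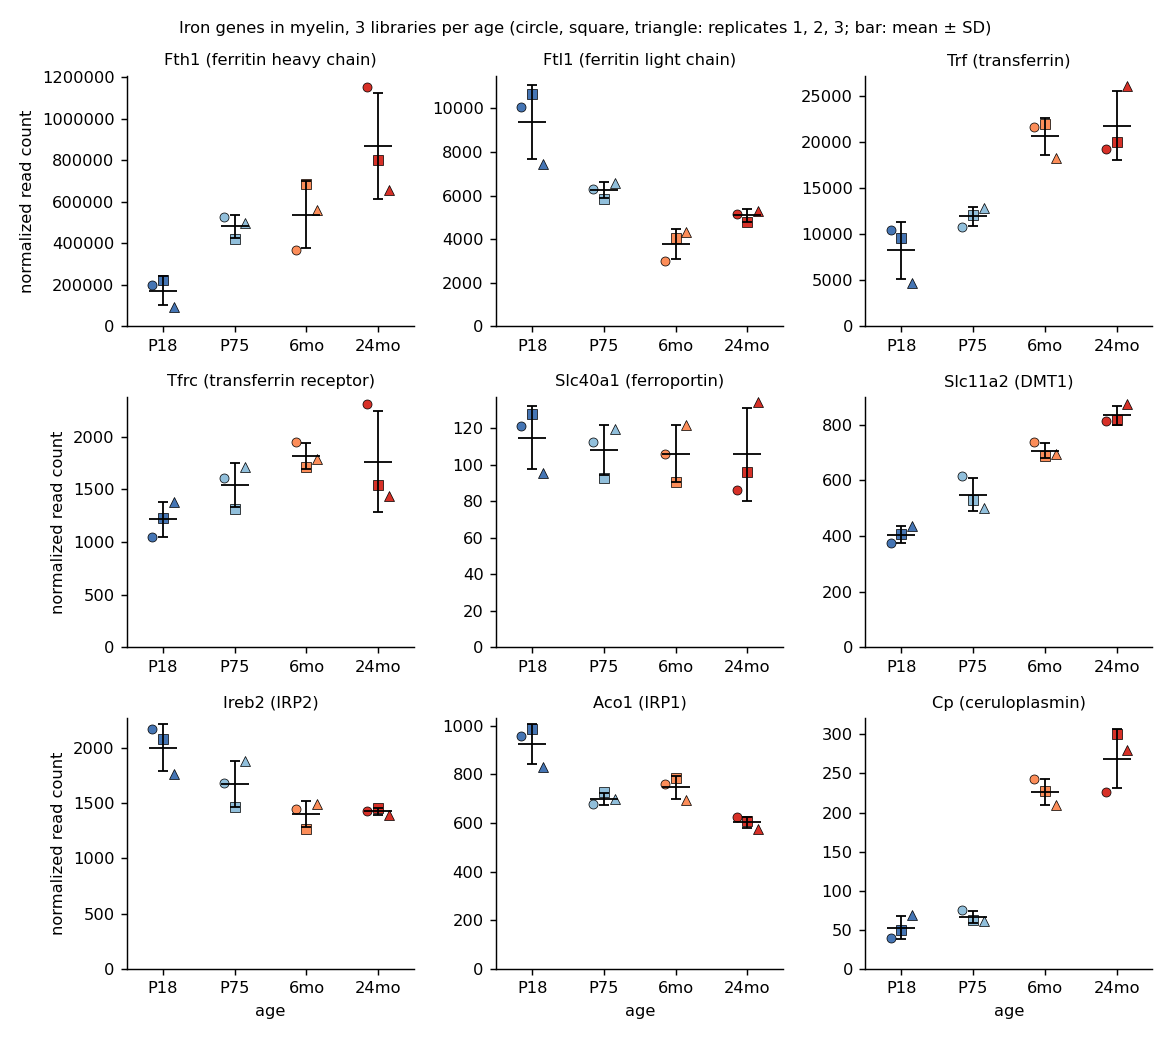
Normalized read count (y axis, from 0) of the 9 iron genes by age (x axis) in each library. Circles, squares and triangles are replicates 1, 2 and 3, and bars give the mean ± SD of 3 libraries. Fth1, Trf, Slc11a2 and Cp sit higher at 24 months than at P18, Ftl1, Ireb2 and Aco1 sit lower, and the ranges of Slc40a1 overlap at all ages.

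Trf encodes transferrin, which in the brain is made by oligodendrocytes and the choroid plexus. The model used spans chromosome 9 from 103106331 to 103132774 with 19 exons, and another model with this symbol shares 2108 of its exon bases. The normalized read count of Trf was 10471, 9536 and 4713 at P18, 10822, 12127 and 12847 at P75, 21612, 21939 and 18302 at 6 months, and 19204, 20054 and 26130 at 24 months. The younger ages lay below the older ages, with no overlap between P75 and 6 months. Trf rose by 0.61 ± 0.22 (SE, log2) from P18 to P75 and by 0.79 ± 0.22 from P75 to 6 months (limma, adjusted p = 0.034 and 0.0063). The first rise depended on single libraries, since without the third library of P18 it was 0.25 (adjusted p = 0.14) and without the third of P75 it was 0.56 (adjusted p = 0.1005). From 6 to 24 months the change was 0.07 (interval -0.39 to 0.53). Over the whole span Trf was 2.78-fold higher at 24 months than at P18 (log2 change 1.47 ± 0.22; limma, adjusted p = 2.1e-05).

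Markers of the choroid plexus and of microglia rose over the same span as Trf. All 6 choroid plexus markers, none at 0, rose from P18 to 24 months, where 34.7% of all tested genes did. Their summed normalized read count was 12612 to 14711 at P18 and 23529 to 28872 at P75. It was 27541 to 31883 at 6 months and 42723 to 47354 at 24 months. Most of each sum was Ttr, with 14188, 12097 and 14034 in the P18 libraries. In the last step, in which Trf did not pass the test, 1 of the 6 (Ttr, from 28731 to 44404 on average) rose, against 16.6% of all genes. Of 10 microglial markers, none at 0, 9 rose from P18 to 24 months, with sums of 5313 to 6192 at P18, 7532 to 8490.1 at P75, 9292 to 10725 at 6 months and 13459 to 16318 at 24 months. The part of either cell type in the rise of Trf was not tested.

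Tfrc encodes the transferrin receptor, which binds iron-loaded transferrin at the cell surface. It spans chromosome 16 from 32609006 to 32632880, with 19 exons. Its normalized read count was 1045, 1228 and 1377 at P18, 1613, 1313 and 1709 at P75, 1949, 1710 and 1788 at 6 months, and 2313, 1539 and 1434 at 24 months. The ranges of P18 and P75 overlapped slightly, and the 24-month libraries were the most spread, with replicate 1 high. Tfrc rose by 0.34 ± 0.15 (SE, log2) from P18 to P75 (limma, adjusted p = 0.082), which was past the threshold by little: edgeR on the recovered reads gave an adjusted p of 0.102, and limma gave 0.13 to 0.27 without replicate 1 or 2 of P18 or replicate 1 or 3 of P75. Over the whole span it rose by 0.51 ± 0.15 (limma, adjusted p = 0.0081). The other steps did not pass the test (0.24 and -0.07), though the first of them did without replicate 1 of 24 months (adjusted p = 0.091).

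Slc11a2 encodes DMT1, which carries ferrous iron across the endosomal membrane. It spans chromosome 15 from 100218329 to 100255503 with 20 merged exons, of which 402 bases are shared with a gene on the opposite strand. Its normalized read count was 374, 407 and 435 at P18, 615, 529 and 501 at P75, 737, 686 and 695 at 6 months, and 811, 815 and 874 at 24 months. No range overlapped its neighbour in time, and each age lay above the one before it. Slc11a2 rose by 0.43, 0.37 and 0.24 (each ± 0.09, SE, log2) in the 3 steps (limma, adjusted p = 0.0017, 0.0037 and 0.082). The last of these calls was lost without any 1 of the libraries of 6 or 24 months, with adjusted p-values from 0.12 to 0.20, and with libraries scaled to the same total (0.29). From P18 to 24 months the rise was 2.06-fold (log2 change 1.04 ± 0.09; limma, adjusted p = 8.9e-08).

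Slc40a1 encodes ferroportin, the exporter of iron from cells. It spans chromosome 1 from 45964915 to 45982439, with 8 exons. Its normalized read count was 121, 128 and 95.4 at P18, 112, 92.7 and 119 at P75, 106, 90.5 and 122 at 6 months, and 86.2, 96.2 and 134 at 24 months. All 4 ranges overlapped, and the change from P18 to 24 months was -0.13 (log2), with a 95% interval from -0.52 to 0.25. Between 87 and 145 reads per library lay behind these values. With quantile normalization the change over the whole span was -0.37 (adjusted p = 0.081).

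Cp encodes ceruloplasmin, a copper ferroxidase that in the brain is made by astrocytes and the choroid plexus. It spans chromosome 3 from 19857054 to 19909145 with 22 merged exons, and shares 108 exon bases with Hps3 on the opposite strand. Its normalized read count was 39.2, 49.7 and 68.3 at P18, 75.2, 63.0 and 60.8 at P75, 243, 227 and 209 at 6 months, and 227, 301 and 280 at 24 months. The libraries fell into a low pair of ages and a high pair, with no overlap between P75 and 6 months. Cp rose 3.39-fold from P75 to 6 months (log2 change 1.76 ± 0.18, SE; limma, adjusted p = 1.3e-06) and 5.15-fold from P18 to 24 months (2.36 ± 0.18; limma, adjusted p = 1.2e-08). The step from P18 to P75 was 0.36 (adjusted p = 0.11), and 0.57 (adjusted p = 0.0085) without the third P18 library, and scaling to the same total also brought it past the threshold (0.49, adjusted p = 0.056). From 33 to 302 reads per library were counted on Cp.

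From P75 to 6 months, 5 of 6 choroid plexus markers rose as well, where 31.2% of all tested genes rose and 29.4% fell. Their sums are given above with Trf. Of 8 astrocyte markers, none at 0, 2 rose and 1 fell over that step. Their summed normalized read count lay between 103784 and 109731 at P75 and between 99071 and 111266 at 6 months. This sum hides opposite moves of its members. Slc1a3 rose from 8650 to 15370 on average, while Aldoc went from 38968, 44188 and 40338 to 27771, 32010 and 27465. The part of either cell type in the rise of Cp was not tested.

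Ireb2 and Aco1 encode IRP2 and IRP1, of which IRP1 is also the aconitase of the cytosol when it holds an iron-sulfur cluster. Ireb2 spans chromosome 9 from 54711562 to 54760341 with 22 merged exons, and Aco1 spans chromosome 4 from 40090114 to 40146042 with 23. The normalized read count of Ireb2 was 2173, 2078 and 1761 at P18, 1680.5, 1462 and 1880.4 at P75, 1447, 1264 and 1494 at 6 months, and 1432, 1456 and 1394 at 24 months. It fell by 0.26 ± 0.10 (SE, log2) from P18 to P75 and by 0.25 ± 0.10 from P75 to 6 months (limma, adjusted p = 0.054 and 0.0503). Neighbouring ages overlapped in both steps. The first call was lost without replicate 1 or 2 of P18 or replicate 2 of P75 (adjusted p from 0.14 to 0.24), and the second without replicate 1 or 3 of P75 or replicate 2 of 6 months (0.102 to 0.22). With libraries scaled to the same total the first change was -0.14 (adjusted p = 0.40). Over the whole span, where the ranges of P18 and 24 months did not overlap, Ireb2 fell by 0.48 ± 0.10 (limma, adjusted p = 0.00069).

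The normalized read count of Aco1 was 957, 988 and 831 at P18, 676, 726 and 696 at P75, 760.4, 786 and 694 at 6 months, and 623, 607 and 577 at 24 months. Its decline came in the first and last steps. Aco1 fell by 0.40 ± 0.09 (SE, log2) from P18 to P75 and by 0.31 ± 0.09 from 6 to 24 months (limma, adjusted p = 0.0019 and 0.024). Between them the change was 0.09 (interval -0.09 to 0.28).

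Counted over the 9 members, 4 rose and 3 fell from P18 to P75, where 25.9% and 22.9% of all tested genes did. From P75 to 6 months 3 rose and 2 fell, against 31.2% and 29.4% of all genes. From 6 to 24 months 2 rose and 1 fell, against 16.6% and 12.7%. From P18 to 24 months 5 rose and 3 fell, against 34.7% and 34.3%. Differences between any of the 4 ages were called in 8 of 9 members (limma F test), all but Slc40a1 (adjusted p = 0.89), against 83.8% of all genes, so the share of members that changed was near that of the whole table. The median log2 change of all genes lay between -0.01 and 0.03 in these comparisons.

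**Figure D2:**
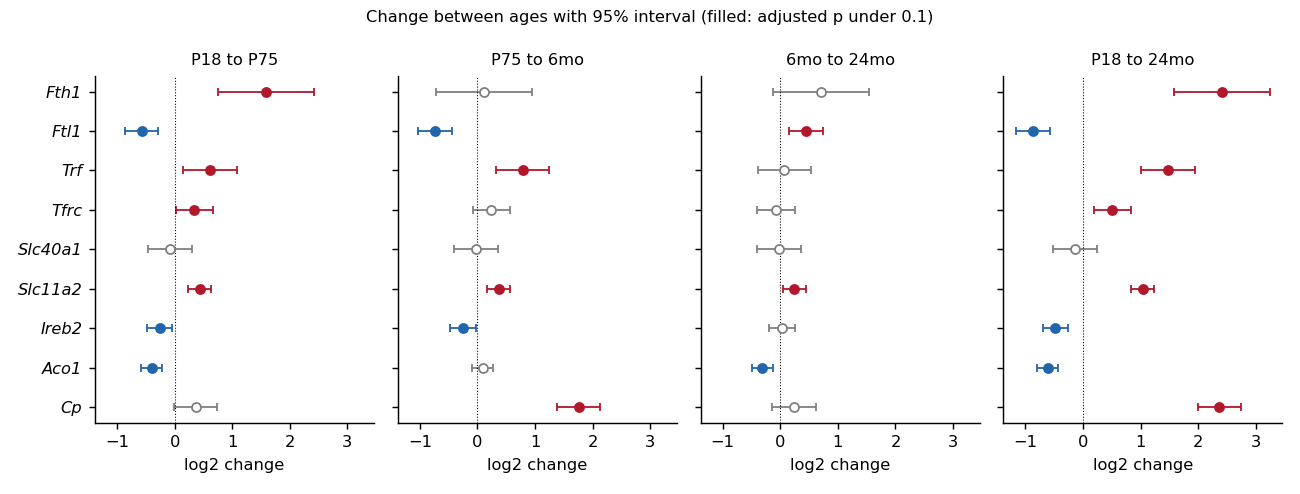
Log2 change (x axis) of each iron gene (y axis) in the 3 consecutive comparisons and over the whole span, with 95% intervals from the limma fit. Filled points have an adjusted p under 0.1, red for a rise and blue for a fall. Fth1 (2.41) and Cp (2.36) have the largest changes of the 9 from P18 to 24 months, and their steps fall at different ages.

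A ratio of 2 genes within a library does not depend on how libraries were scaled to each other. Ferritin heavy over light chain was taken as a ratio of normalized read counts that were not divided by length, so its level has no meaning in molecules, while its change with age does not depend on length. Fth1 over Ftl1 was 19.8, 20.8 and 12.3 at P18, 83.4, 71.3 and 75.7 at P75, 122, 169 and 130.005 at 6 months, and 223, 167 and 123 at 24 months. The ranges of P18, P75 and 6 months lay in ascending order without overlap, and those of 6 and 24 months overlapped. Its geometric mean was 17.2 at P18 and 166 at 24 months, and the difference between ages had an adjusted p of 0.0012 (exact permutation test of the F statistic over 369600 arrangements of the libraries, Benjamini-Hochberg over 3 ratios). Single steps of 3 against 3 libraries cannot go below an exact p of 0.1, which the steps from P18 to P75 and from P75 to 6 months reached (2.16 and 0.86, log2). The step from 6 to 24 months had p = 0.6 (0.26, exact permutation test, two-sided).

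Mbp encodes myelin basic protein and, like Fth1, is among the most abundant messenger RNAs of myelin. Fth1 over Mbp was 0.0540, 0.0398 and 0.0428 at P18, 0.328, 0.370 and 0.467 at P75, 0.329, 0.334 and 0.472 at 6 months, and 0.643, 0.541 and 0.541 at 24 months. As with the first ratio, its change with age and not its level is of interest, since the counts were not divided by length. The geometric mean was 0.0451 at P18 and 0.573 at 24 months (adjusted p = 0.0016, exact permutation test). The first step was 3.09 on the log2 scale, and P75 and 6 months overlapped almost fully (-0.04). From P18 to P75, 8 of the 11 myelin markers fell and none rose, against 22.9% and 25.9% of all genes. From P18 to 24 months the count was the same, against 34.3% and 34.7%.

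Tfrc over Fth1 compares receptor with store, whose elements lie at opposite ends of the transcript. Expressed as Fth1 per Tfrc, the values were 190, 181 and 66.3 at P18, 325, 318 and 292 at P75, 188, 400.4 and 313 at 6 months, and 498, 519 and 457 at 24 months. Replicate 3 of P18 and replicate 1 of 6 months stood low, and the libraries of 24 months lay above all others. The geometric mean, with the low replicate 3 of P18 included, went from 132 at P18 to 491 at 24 months (adjusted p = 0.0022, exact permutation test).

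**Figure D3:**
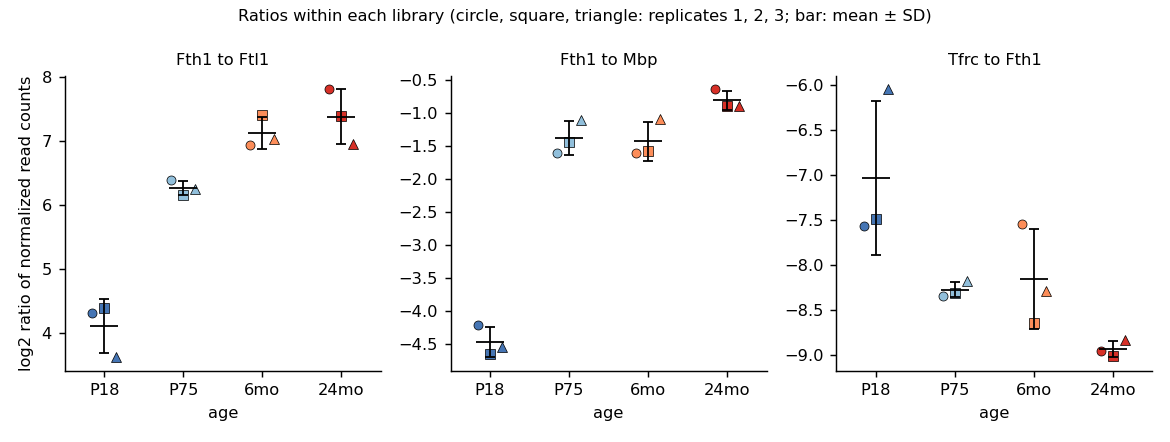
Log2 ratio of normalized read counts within each library (y axis) by age (x axis) for Fth1 to Ftl1, Fth1 to Mbp and Tfrc to Fth1, where circles, squares and triangles are replicates 1, 2 and 3, and bars give the mean ± SD of 3 libraries. The mean log2 ratio of Fth1 to Ftl1 goes from 4.10 at P18 to 7.38 at 24 months, that of Fth1 to Mbp from -4.47 to -0.80, and that of Tfrc to Fth1 from -7.04 to -8.94.

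To set the levels of the 9 genes side by side, the normalized read count was divided by the merged exon length, as counts per kilobase of exon. The places of Fth1 and Ftl1 carry the uncertainty from their copies in the genome given above. At P18 the order was Fth1 (197183 ± 80444, SD, n = 3), Ftl1 (7009 ± 1269), Trf (2489 ± 934), Ireb2 (345 ± 37.2), Tfrc (197 ± 26.9), Aco1 (178 ± 15.99), Slc11a2 (63.8 ± 4.77), Slc40a1 (34.0 ± 5.05) and Cp (5.48 ± 1.54). Of these neighbours only Tfrc and Aco1 overlapped. At 24 months Trf (6585 ± 1141) stood above Ftl1 (3795 ± 207), and Slc11a2 (131 ± 5.51) above Aco1 (116 ± 4.53), in both cases without overlap. Tfrc (285 ± 77.7) and Ireb2 (246 ± 5.42) overlapped at 24 months, as did Slc40a1 (31.2 ± 7.50) and Cp (28.1 ± 3.97). Trf was at 3605 ± 310 per kilobase against 4662 ± 270 for Ftl1 at P75, and at 6229 ± 608 against 2823 ± 516 at 6 months. Since 56.3% of the windows of Ftl1 and 5.4% of those of Trf occur elsewhere, the order of this pair is uncertain.

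**Figure D4:**
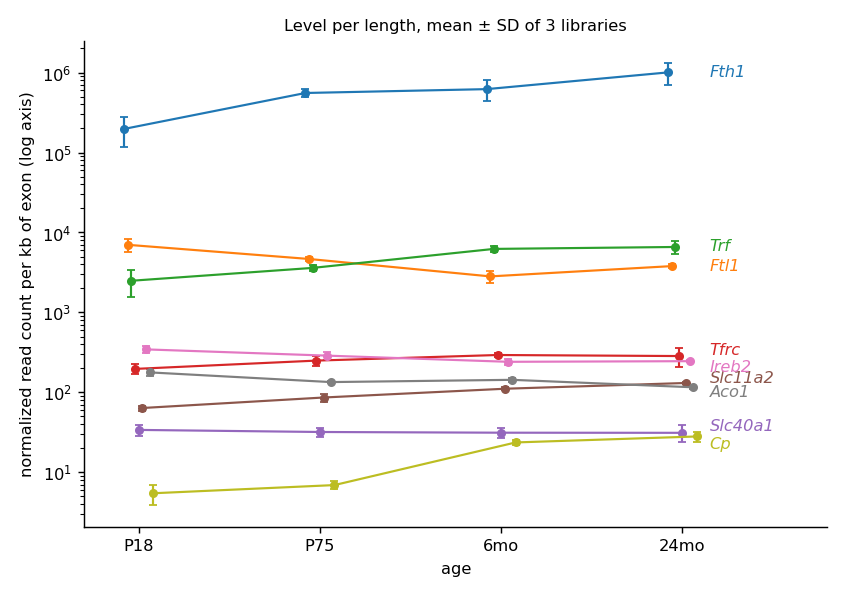
Normalized read count per kilobase of merged exon (y axis, log scale) of the 9 genes by age (x axis), as the mean ± SD of 3 libraries. Fth1 lies above all others at each age, the lines of Trf and Ftl1 cross after P75, where the level of Ftl1 is uncertain because of its copies, and Cp rises from 5.48 at P18 to 28.1 at 24 months, the level of Slc40a1.

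The genes with the most similar course were found by the root mean square difference of their log2 values, centred on the mean of each gene, over the 12 libraries, among 11304 genes with a mean of at least 100. Fth1 was most like Aktip (0.24), Svip (0.28) and Plekhb1 (0.29), where its own spread was 0.96. Aktip had mean normalized read counts of 2730, 9166, 10330 and 13070 at the 4 ages in order, and Plekhb1, a protein with a pleckstrin homology domain, 55231, 133584, 154327 and 173259. Ftl1 was most like Cyb5, 1110032A03Rik and Sepw1 (0.14 each, own spread 0.51), and Sepw1 shared its low point at 6 months, with 23288, 15047, 10870 and 12906. Trf was most like Itgam, Enpp2 and Gpr37 (0.16 to 0.18, own spread 0.67). Enpp2, which makes lysophosphatidic acid and is expressed in oligodendrocytes and the choroid plexus, had means of 7379, 12016, 16169 and 18187. Itgam is a microglial marker of low level, with means from 133 to 361.

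Among the transporters, Slc11a2 was most like Sema4a, Sidt1 and Plxnb2 (0.08 each, own spread 0.40), with Plxnb2 at 538, 713, 936 and 1024. Cp was most like Uxs1, Lgals3bp and Nxph1 (0.21 to 0.22, own spread 1.06), and Nxph1 went from 209 at P75 to 737 at 6 months. Tfrc was most like Chpf2, 6430571L13Rik and Riok1 (0.14 to 0.15, own spread 0.30), and Slc40a1 most like Cyb5r4, Heatr5a and Creb1 (0.12 to 0.14, own spread 0.21). Of the regulators, Ireb2 was most like 1110067D22Rik, Rbm18 and Zfp770 (0.06 to 0.07, own spread 0.23), and Aco1 most like 5730403B10Rik, Cplx1 and Pitpna (0.05 to 0.07, own spread 0.23). Within the 9, Ireb2 and Aco1 were the pair most alike (0.19), and Ftl1 and Cp the least (1.51). These likenesses describe the same 12 libraries and were given no test.

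The wider pathway was described with 7 lists that hold 76 further genes, of which 67 were tested. From P18 to 24 months 26 of the 67 rose and 30 fell, where 34.7% and 34.3% of all tested genes did. The uptake and export lists held 19 of the 26 that rose, and those of heme synthesis and of mitochondrial iron and iron-sulfur clusters held 20 of the 30 that fell.

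Of the iron uptake genes outside the 9, 10 of 11 tested rose from P18 to 24 months and none fell. Of all tested genes 34.7% rose and 34.3% fell. The median log2 change of the list was 1.11 (all genes: -0.01). Steap2 and Steap3 encode reductases that turn ferric into ferrous iron. Steap2 went from 499 ± 6.09 to 735 ± 47.4 (SD, n = 3) normalized read counts from P18 to P75, and Steap3 from 38.1 ± 12.4 to 91.1 ± 5.02 from P75 to 6 months (log2 changes 0.56 and 1.28; limma, adjusted p = 0.00053 and 0.0022). Slc39a14, a zinc transporter that also carries iron, went from 275 ± 26.5 at P18 to 608 ± 40.3 at 24 months, and was singled out after its values were seen. Lcn2, which binds iron-loaded siderophores, had 4.87, 0.89 and 3.89 normalized read counts at 6 months and 25.8, 211 and 38.9 at 24 months. Its rise (log2 change 4.01 ± 0.72, limma, adjusted p = 0.0022) was drawn up by replicate 2 of 24 months and was smaller, 3.11 (adjusted p = 0.015), without it. Lcn2 passed the filter on the mean only through the libraries of 24 months.

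Of the further genes of iron export and its control, 9 of 9 tested rose from P18 to 24 months, against 34.7% of all genes. Their median log2 change was 0.94. The iron exporter ferroportin (Slc40a1) is not among them, and its change over this span was -0.13 (limma, adjusted p = 0.53). Heph, a membrane ferroxidase related to ceruloplasmin, had 138, 111 and 197 normalized read counts at P75 and 246, 265 and 237 at 6 months, and rose by 0.78 ± 0.19 (SE, log2; limma, adjusted p = 0.0031). Bmp6, a signal that raises hepcidin in the liver, went from 43.4 ± 14.9 to 192 ± 21.99 over the same step (log2 change 2.17 ± 0.22; limma, adjusted p = 1.4e-06). Mfsd7b, the heme exporter also called Flvcr1, rose by 0.43 from 6 to 24 months (limma, adjusted p = 0.0091), and Tmprss6, at 5.35 ± 3.43 normalized read counts at P18, rose by 1.37 to P75 (adjusted p = 0.015). At so low a count the size depended on the pseudocount and on single libraries, from 0.67 with a pseudocount of 10 to 1.77 without replicate 3 of P18. Without the third P18 library 9 genes of the uptake list and 8 of the list of export and its control rose over the whole span. Hfe2, Mfsd7c and Tmprss6, at 7.80, 8.17 and 5.35 on average at P18, passed the filter on the mean only through later ages. With a filter of a mean of at least 100, fewer genes were tested. All 5 genes of the list of export and its control and all 4 of the uptake list that passed it rose over this span. Of all 11305 genes that passed it, 3843 rose and 4427 fell. The 6 choroid plexus and 9 of the 10 microglial markers rose over the same span, with the sums given with Trf. Of 8 endothelial markers, none at 0, 5 rose and 1 fell, with sums of 964 to 1086 at P18 and 1087 to 1528 at 24 months. Of 9 neuronal markers, none at 0, 3 rose and 4 fell, so that their sums hide opposite moves. The neuronal sums were 168799 to 206575 at P18 and 169774 to 175994 at 24 months. The part of these cell types in the rise of the genes of the uptake list and of the list of export and its control was not tested.

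In the list of storage and ferritin turnover, 1 of 5 tested genes rose and 4 fell from P18 to 24 months, against 34.7% and 34.3% of all genes. The gene that rose was Ncoa4, the receptor that hands ferritin to autophagy, with 2886 ± 160 (SD, n = 3) normalized read counts at P18 and 3346 ± 189 at 24 months (log2 change 0.21; limma, adjusted p = 0.038). This call was lost without the third P18 library (adjusted p = 0.11) and without the second of 24 months (0.14). Pcbp2 and Pcbp1 encode chaperones that deliver iron to ferritin. Pcbp2 fell by 0.47 from P18 to P75, rose by 0.18 from P75 to 6 months and fell by 0.20 from 6 to 24 months (limma, adjusted p = 0.00012, 0.049 and 0.065). Its last call was lost without replicate 1 or 2 of 6 months, without any 1 library of 24 months, and with libraries scaled to the same total. Pcbp1 fell by 0.71 from P75 to 6 months (limma, adjusted p = 4.0e-05), with changes of -0.08 and 0.16 in the other steps. Atg7, an enzyme of autophagy, fell by 0.38 from P18 to P75, rose by 0.38 from P75 to 6 months and fell by 0.39 from 6 to 24 months (limma, adjusted p = 0.015, 0.012 and 0.028). The last of these calls was lost without replicate 2 of 6 months (adjusted p = 0.13).

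All 3 further genes of the iron-regulatory list fell over the whole span, where 34.3% of all tested genes did. Fbxl5, the iron-sensing adaptor that marks IRP2 for degradation, had 3095 ± 376 normalized read counts at P18 and 2256 ± 57.1 at 24 months (log2 change -0.45 ± 0.09; limma, adjusted p = 0.00028). Skp1a, a subunit of the same ubiquitin ligase, fell by 0.70 from P75 to 6 months and rose by 0.32 from 6 to 24 months (limma, adjusted p = 4.6e-05 and 0.043), the latter not called without replicate 1 or 2 of 6 or of 24 months (adjusted p from 0.11 to 0.15).

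Of the genes of mitochondrial iron and iron-sulfur clusters, 15 of 22 fell and 3 rose from P75 to 6 months (median log2 change -0.47), the step in which 29.4% of all tested genes fell and 31.2% rose. Bola3, which acts late in cluster assembly, went from 944, 987 and 1062 normalized read counts to 328, 449 and 486 (log2 change -1.26 ± 0.13; limma, adjusted p = 2.0e-06), and rose by 0.56 from 6 to 24 months (adjusted p = 0.011). Slc25a37, the mitochondrial iron importer also called mitoferrin-1, fell by 0.59 over this step and rose by 0.43 from 6 to 24 months (limma, adjusted p = 0.00032 and 0.014). From 6 to 24 months 9 of the 22 rose, where 16.6% of all genes did. With libraries left out in turn 4 to 9 rose, and 4 did so without replicate 1 of 6 or of 24 months. In those 2 fits 1454 and 1739 of the 14634 tested genes rose, against 2435 with all libraries. Hscb, a cochaperone of cluster transfer, was among the 9 that rose (log2 change 0.59; limma, adjusted p = 0.011), after a fall by 1.15 from P75 to 6 months (adjusted p = 7.9e-06). Ciapin1, of the cytosolic assembly machinery, fell by 0.63 in the first step, rose by 0.19 in the second and fell by 0.32 in the third (limma, adjusted p = 4.1e-05, 0.075 and 0.019).

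Of 11 heme synthesis genes, 6 fell and 1 rose from P18 to P75 (all genes: 22.9% and 25.9%), and 8 fell and 2 rose over the whole span (34.3% and 34.7%). With libraries scaled to the same total, 3 rose and 2 fell in the first step, where 4739 of all 14634 tested genes rose and 1827 fell. Alas2, the erythroid form of the first enzyme of heme synthesis, had 472, 362 and 414 normalized read counts at P18 and 44.1, 36.2 and 43.1 at P75 (log2 change -3.30 ± 0.21; limma, adjusted p = 4.5e-08). The 7 erythroid markers, of which Alas2 is one, summed to 400.0 to 541 at P18 and to 34.9 to 64.8 later. Hba-a1, Hba-a2, Hbb-b1 and Hbb-b2 are listed at 0 in all 12 libraries. The part of blood cells in the fall of Alas2 was not tested. Abcb6, a porphyrin transporter, rose by 0.70, 0.50 and 0.40 in the 3 steps (limma, adjusted p = 9.4e-05, 0.00084 and 0.016), and Alad, the second enzyme of the pathway, fell by 0.56 from P75 to 6 months (limma, adjusted p = 0.00036).

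Of 6 tested genes of heme binding and breakdown, 1 rose and 3 fell from P18 to 24 months, against 34.7% and 34.3% of all genes. With libraries scaled to the same total 1 rose and 1 fell, where 5353 of all 14634 tested genes rose and 3967 fell. Hmox1, the inducible heme oxygenase that frees iron from heme, had 226, 174 and 201 normalized read counts at P18 and 178, 153 and 143 at P75, with overlapping ranges (log2 change -0.34; limma, adjusted p = 0.076). That call was lost without replicate 1 or 3 of P18 or replicate 2 or 3 of P75 (adjusted p from 0.11 to 0.25). Over the whole span its change was -0.32 (adjusted p = 0.067), a call lost without replicate 1 or 3 of P18 or replicate 1 or 2 of 24 months (adjusted p from 0.101 to 0.23) and with libraries scaled to the same total (0.20). Hmox2, the constitutive form, fell by 0.57 from P18 to P75, rose by 0.64 from P75 to 6 months and fell by 0.34 from 6 to 24 months (limma, adjusted p = 0.00015, 3.1e-05 and 0.017). Blvrb, a biliverdin reductase, fell by 0.90 from P75 to 6 months and rose by 0.34 from 6 to 24 months (limma, adjusted p = 4.8e-06 and 0.034).

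**Figure D5:**
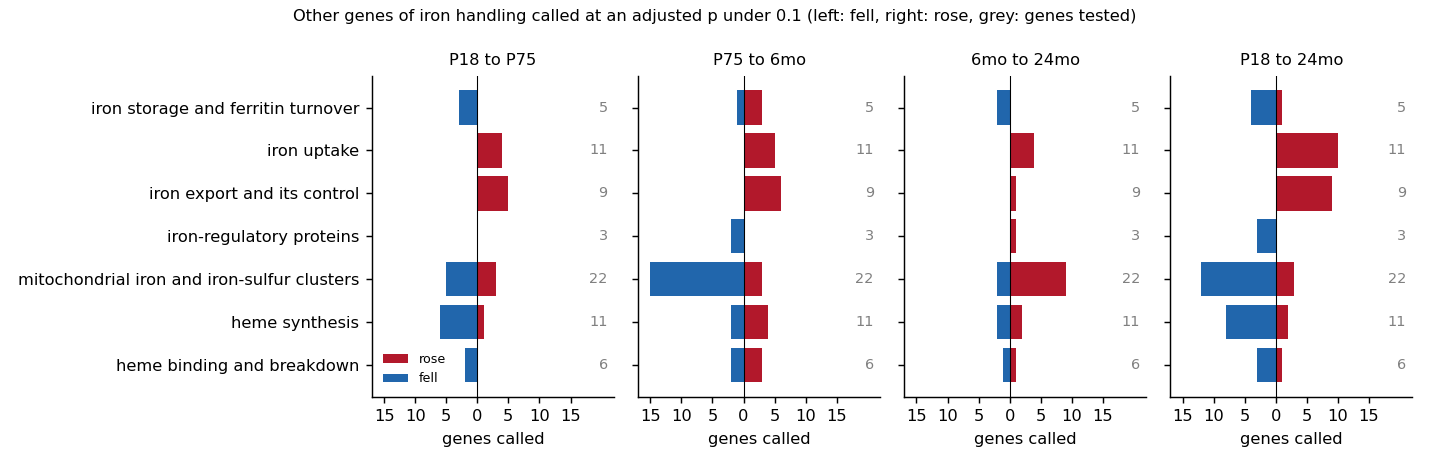
Number of genes (x axis) of 7 lists of iron and heme handling, without the 9 genes above, that rose (red, to the right) or fell (blue, to the left) at an adjusted p under 0.1 in each comparison; grey numbers give the genes tested. From P18 to 24 months 10 of 11 genes of iron uptake and 9 of 9 of iron export and its control rose. None fell (all genes: 34.7% rose and 34.3% fell). Some of these genes passed the filter on the mean only through later ages. The exporter Slc40a1, one of the 9 genes above, is not counted here. From P75 to 6 months 15 of 22 genes of mitochondrial iron and iron-sulfur clusters fell (all genes: 29.4%).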

How the data were processed

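RNA of purified myelin was sequenced at 4 ages with 3 libraries each. The authors used TopHat for alignment to mm9, HTSeq 0.5.4p1 for counting on genes and DESeq for size factors. The deposited signal, 1 column per library, is the count over the size factor. Strandedness and the treatment of reads with several matches are not given in the sources used here. Dividing by the value of 1 read gave whole numbers (within 0.011) for at least 99.99% of values, and these recovered reads gave depth and served edgeR 4.0.16 and DESeq2 1.42.0 as alternatives.

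Ages were taken from the labels. The main test was limma 3.58.1 (trend) in R 4.3.3 with age alone. On simulated data it recovered 100% of 200 genes changed by a fold of 3 among 14634 from P18 to P75. It also called 25 genes that were left unchanged. Recovery of smaller changes, such as those of Tfrc and Ireb2, was not tested. The simulated counts of all genes had the same fixed dispersion, that is the spread beyond that of counting. At P18 the SD of Fth1 was 40.8% of its mean, and recovery in genes as variable as this was not tested. Ratios used exact permutation tests, two-sided by construction. Exons came from GENCODE vM1. The members and lists were chosen with earlier results of these data known. Named by rule were the 9 genes, the 3 genes most like each, the gene of each wider list with the largest called change in each consecutive step, and Ncoa4, Fbxl5, Heph, Steap3, Slc25a37, Hmox1 and Alas2 by role. Alternatives were other pseudocounts, filters, scalings, tools and thresholds, a replicate block, fits of 2 ages, and each library left out. Cerebellum, cortex and other tissues were not analysed here.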

Additional observations from a re-analysis of the deposited data

How the results depend on the processing

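Of the counts of members called and the 3 ratios, 160 alternative values stayed within 1.5 times the count or on the same side of the threshold, and 1 did not. It was the count from 6 to 24 months, which was 1 without replicate 1 of 6 months and 1 to 3 over the libraries left out in turn. Leaving out single libraries gave 5 to 7 members called from P18 to P75, 4 to 6 from P75 to 6 months, and 8 both over the whole span and between any ages. The adjusted p of the ratios then ranged from 0.00058 to 0.0019 for Fth1 to Ftl1, from 0.00078 to 0.0048 for Fth1 to Mbp and from 0.00097 to 0.016 for Tfrc to Fth1 (exact permutation test).

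The reversals concerned changes that no fit called. With libraries left out in turn, the log2 change of Slc40a1 ranged from -0.21 to 0.023 (P18 to P75), from -0.14 to 0.076 (P75 to 6 months) and from -0.21 to 0.11 (6 to 24 months). That of Fth1 from P75 to 6 months ranged from -0.079 to 0.37. From 6 to 24 months the ranges were -0.066 to 0.16 for Trf, -0.29 to 0.058 for Tfrc and -0.043 to 0.078 for Ireb2. Scaling to the same total gave 0.042 for Slc40a1 (P18 to P75) and -0.010 for Ireb2 (6 to 24 months), quantile normalization gave -0.0095 for Trf (6 to 24 months), and edgeR and DESeq2 gave 0.016 and 0.0081 for Slc40a1 (6 to 24 months).

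Scaling to the same total moved the median log2 change of all genes from P18 to P75 to 0.14, with 4739 genes higher and 1827 lower against 3783 and 3354, and ended the call of Ireb2 there (-0.14, adjusted p = 0.40), whereas Cp was called (0.49, adjusted p = 0.056). From 6 to 24 months it gave 1394 higher and 1614 lower against 2435 and 1852, and ended the call of Slc11a2 (0.20, adjusted p = 0.29). Quantile normalization moved the median from P18 to 24 months to -0.12, and Slc40a1 to -0.37 (adjusted p = 0.081).

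Libraries with the same number are not stated to share a mouse, litter or day. Their deviations from the age means correlated from -0.21 to 0.19 over 18 pairs, 4 of them over 0.1, and 11 of 36 comparisons were best with the own number. With a replicate block in the tests, the adjusted p of the ratios was 0.0104, 0.0104 and 0.0139, and Slc11a2 from 6 to 24 months (adjusted p = 0.11) was the only member whose call was lost. Of the named list genes Hmox1 from P18 to P75 (0.103) lost its call too. The fewest reads lay behind Cp (33 to 302 per library) and Slc40a1 (87 to 145), and whether depth limited any of their steps was not tested.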
